A study of Mus musculus with 4 samples.

Results

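The nuclear-encoded subunits of the mitochondrial respiratory chain and of the ATP synthase were examined as 87 protein-coding genes of the 45777 genes listed in the deposited files. They were chosen by a rule on symbols, which uses no measured value. The symbols begin with Ndufa, Ndufb, Ndufc, Ndufs or Ndufv and a digit, are Ndufab1 or Sdha to Sdhd, or begin with Uqcr, Cox4 to Cox8 or Atp5. This gave 38 genes of complex I, 4 of complex II, 8 of complex III, 20 of complex IV and 17 of complex V. The rule does not match Cyc1, cytochrome c1 of complex III, which is counted below with the electron carriers and entry enzymes. Ndufa4 and Ndufa4l2 carry complex I names and were placed with complex IV, where the Ndufa4 protein is found. A further 12 genes with matching symbols were left out because the files do not class them as protein_coding. Among these was Ndufb1-ps, classed as lncRNA, with 146 and 145 TPM (the deposited, length-scaled unit) in the Smad4 Knockout libraries and 142 and 135 TPM in the Control libraries.

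Mouse gastric organoids, cultures of stomach epithelium, were compared by RNA sequencing in 2 genotypes with 2 libraries each. The Smad4 Knockout organoids (lines CPS1 and CPS4) lack Cdh1, Trp53 and Smad4. The Control organoids (lines CPE and CPG) lack Cdh1 and Trp53, so that both genotypes carry the knockouts of E-cadherin and p53 and neither is wild type. Organoids were kept in medium with fetal bovine serum and supernatant of L-WRN cells, a source of Wnt, R-spondin and noggin, and then spent 2 days in a B27 and N2 medium without either. The sources used here do not give how the genes were removed, whether a line is a clone, or whether the lines of a genotype came from separate animals. The p-values therefore measure only the spread between these libraries, which may be technical.

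Complex I takes electrons from NADH and complex II takes them from succinate. Both pass them by way of ubiquinone to complex III, from where cytochrome c carries them to complex IV and oxygen. Complexes I, III and IV pump protons across the inner mitochondrial membrane, and complex V, the ATP synthase, uses the proton gradient to make ATP. The subunits are encoded by 2 genomes: a small set lies in mitochondrial DNA, and all others are nuclear genes, many of which are known targets of NRF1, GABPA and YY1. In the stomach, parietal cells, which secrete acid with an ATP-driven proton pump, are rich in mitochondria.

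Total counts were 85649781 and 96402585 in the Smad4 Knockout libraries and 99845702 and 92334224 in the Control libraries. Smad4 had 54.4 and 52.9 CPM (counts scaled to the TMM-adjusted size of the library) in the Smad4 Knockout libraries and 94.5 and 103 CPM in the Control libraries. Cdh1 had 30.6 and 44.1 CPM in the Smad4 Knockout libraries and 30.7 and 26.0 CPM in the Control libraries, and Trp53 had 5.43 and 4.69 CPM in the Smad4 Knockout libraries and 4.87 and 6.98 CPM in the Control libraries. All 3 genes labelled as knocked out were thus counted in every library. The deleted stretches are not given, so reads over a whole gene check the labels only in part. The quasi-likelihood test of edgeR, with Benjamini-Hochberg adjustment over 18115 genes, called 0 genes at an adjusted p of 0.05 (0%). Smad4 was not called either (log2 fold change -0.88, SE 0.105, adjusted p 0.677 by edgeR). Without adjustment, 6.36% of all genes had a p under 0.05, and DESeq2 called 133 genes (0.541%). Summed TPM of the 11 gastric epithelial markers was 9417 and 9073 in the Smad4 Knockout libraries and 9006 and 8633 in the Control libraries, with Krt8, Krt18, Krt19 and Epcam making up most of it. At an unadjusted p under 0.05 by edgeR, Gkn1, Tff1 and Tff2 of these markers were higher and Muc6 was lower in Smad4 Knockout. Muc6 was near the floor, with 0 and 0 counts in the Smad4 Knockout libraries and 16 and 12 counts in the Control libraries. The Smad4 Knockout libraries differed widely for Gkn1, with 5.87 and 19.97 CPM, against 2.95 and 2.535 CPM in the Control libraries. What part the state of the epithelium has in the values that follow was not tested. Of the parietal markers, Atp4b, Cblif and Slc26a7 were at 0 counts in all 4 libraries, while Kcne2 and Esrrg were counted in some. Atp4a, which encodes part of the proton pump, had 3.60 and 3.54 CPM in Smad4 Knockout and 3.91 and 4.02 CPM in Control. The 6 parietal genes summed to between 1.76 and 1.99 TPM per library, most of it from Atp4a. Pgc, the main marker of chief cells, was at 0. Bhlha15, another chief cell marker, had 0.38 and 0.42 CPM in Smad4 Knockout and 0.12 and 0.54 CPM in Control. The fibroblast, muscle, immune and endothelial markers summed to at most 5.39 TPM each per library.

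The subunit genes were strongly expressed in both genotypes and lay close together between them. They made up 1.79% and 1.79% of all TPM in the Smad4 Knockout libraries and 1.77% and 1.67% in the Control libraries. Of the 87 genes, 81 had enough counts to be tested, and the other 6 were at 0 counts in every library. None of the 81 was called by edgeR, against 0% of all tested genes, and none by DESeq2. In bulk RNA, fewer cells of a type and less RNA per cell cannot be told apart.

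The fitted log2 fold change (Smad4 Knockout over Control) lay within 0.25 of 0 in 77 of the 81 tested genes and within 0.1 in 57 of them. The 4 outside were Ndufb4b, Ndufb4c, Cox7a1 and Cox6b2, which all had a low level. The median was 0.006 over the tested subunit genes and -0.003 over all 18115 genes. By complex, the median was 0.001 for complex I, 0.074 for complex II, 0.046 for complex III, -0.013 for complex IV and 0.021 for complex V. At an unadjusted p under 0.05 there was 1 subunit gene, Ndufb4c, which was lower in Smad4 Knockout. This is 1.23% of those tested, against 6.36% of all genes (3.33% higher and 3.04% lower). Of the 77 subunit genes whose mean was at least 20 CPM there were 0, against 5.87% of all genes at that level. With limma on TPM there were 6 of 80, against 7.09% of all genes with a pseudocount of 1 and 6.94% with one of 0.1. What could have been seen was limited by the 2 libraries per genotype. The common dispersion, 1 value for all tested genes, gave a coefficient of variation of 26.1% between libraries. It is not the spread of the subunit genes themselves. For 2 abundant ones, the SE of the log2 fold change was 0.104 (Ndufb9) and 0.125 (Atp5b). A p that misses the threshold does not show that a gene had the same level in both genotypes.

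**Figure D1:**
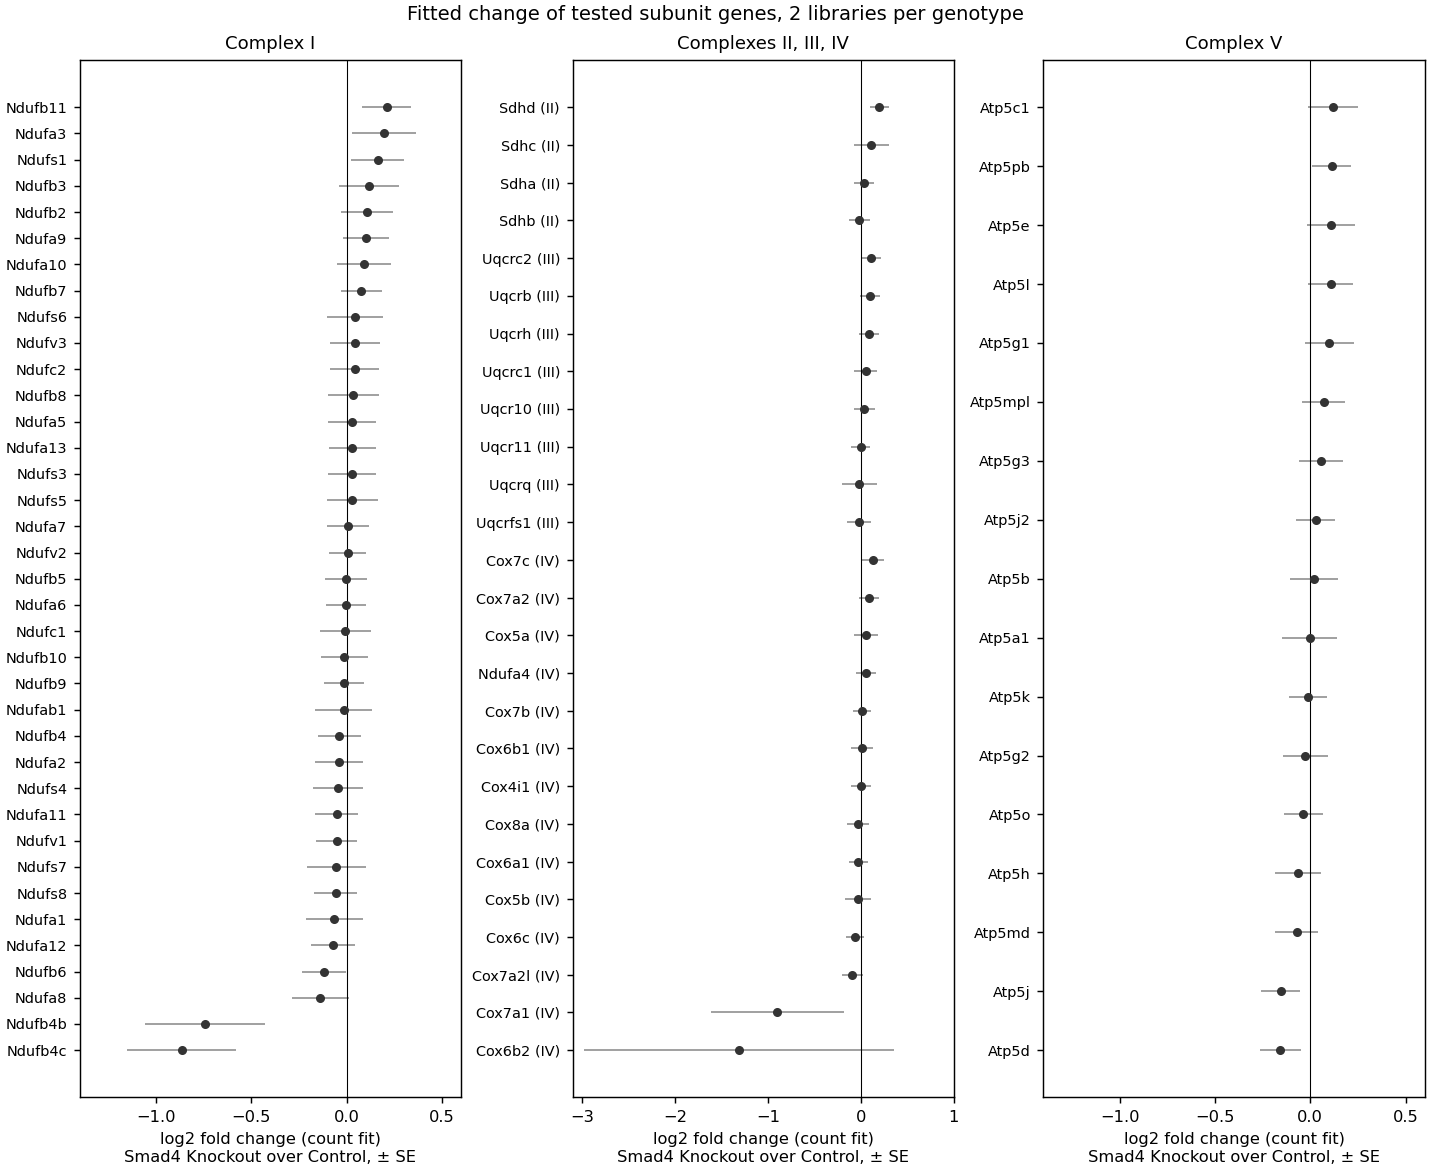
Fitted log2 fold change (Smad4 Knockout over Control, x axis) of 80 of the 81 tested subunit genes, with bars of 1 standard error, from the edgeR fit to the counts of 2 libraries per genotype. All genes drawn but Ndufb4b, Ndufb4c, Cox7a1 and Cox6b2 lie within 0.25 of 0, and the middle panel has a wider axis than the other panels.

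Levels within a complex differed far more between subunits than between genotypes. TPM is scaled by transcript length, so it allows subunits to be set side by side. Over the 4 libraries, the mean TPM in complex I ran from 251 for Ndufb9 to 26.4 for Ndufa11 among the 36 genes above 10 TPM, a ratio of 9.51, with a median of 103. Among the 12 of 20 complex IV genes above 10 TPM it ran from 620 for Cox4i1 to 193 for Cox5a (ratio 3.21, median 380), while the other 8 were at or near 0. The highest level of all 87 genes was that of Atp5b, the catalytic beta subunit of the ATP synthase, with 1234 and 1309 TPM in the Smad4 Knockout libraries and 1283 and 1162 TPM in the Control libraries. The genotypes overlapped for Atp5b (log2 fold change 0.021, SE 0.125).

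**Figure D2:**
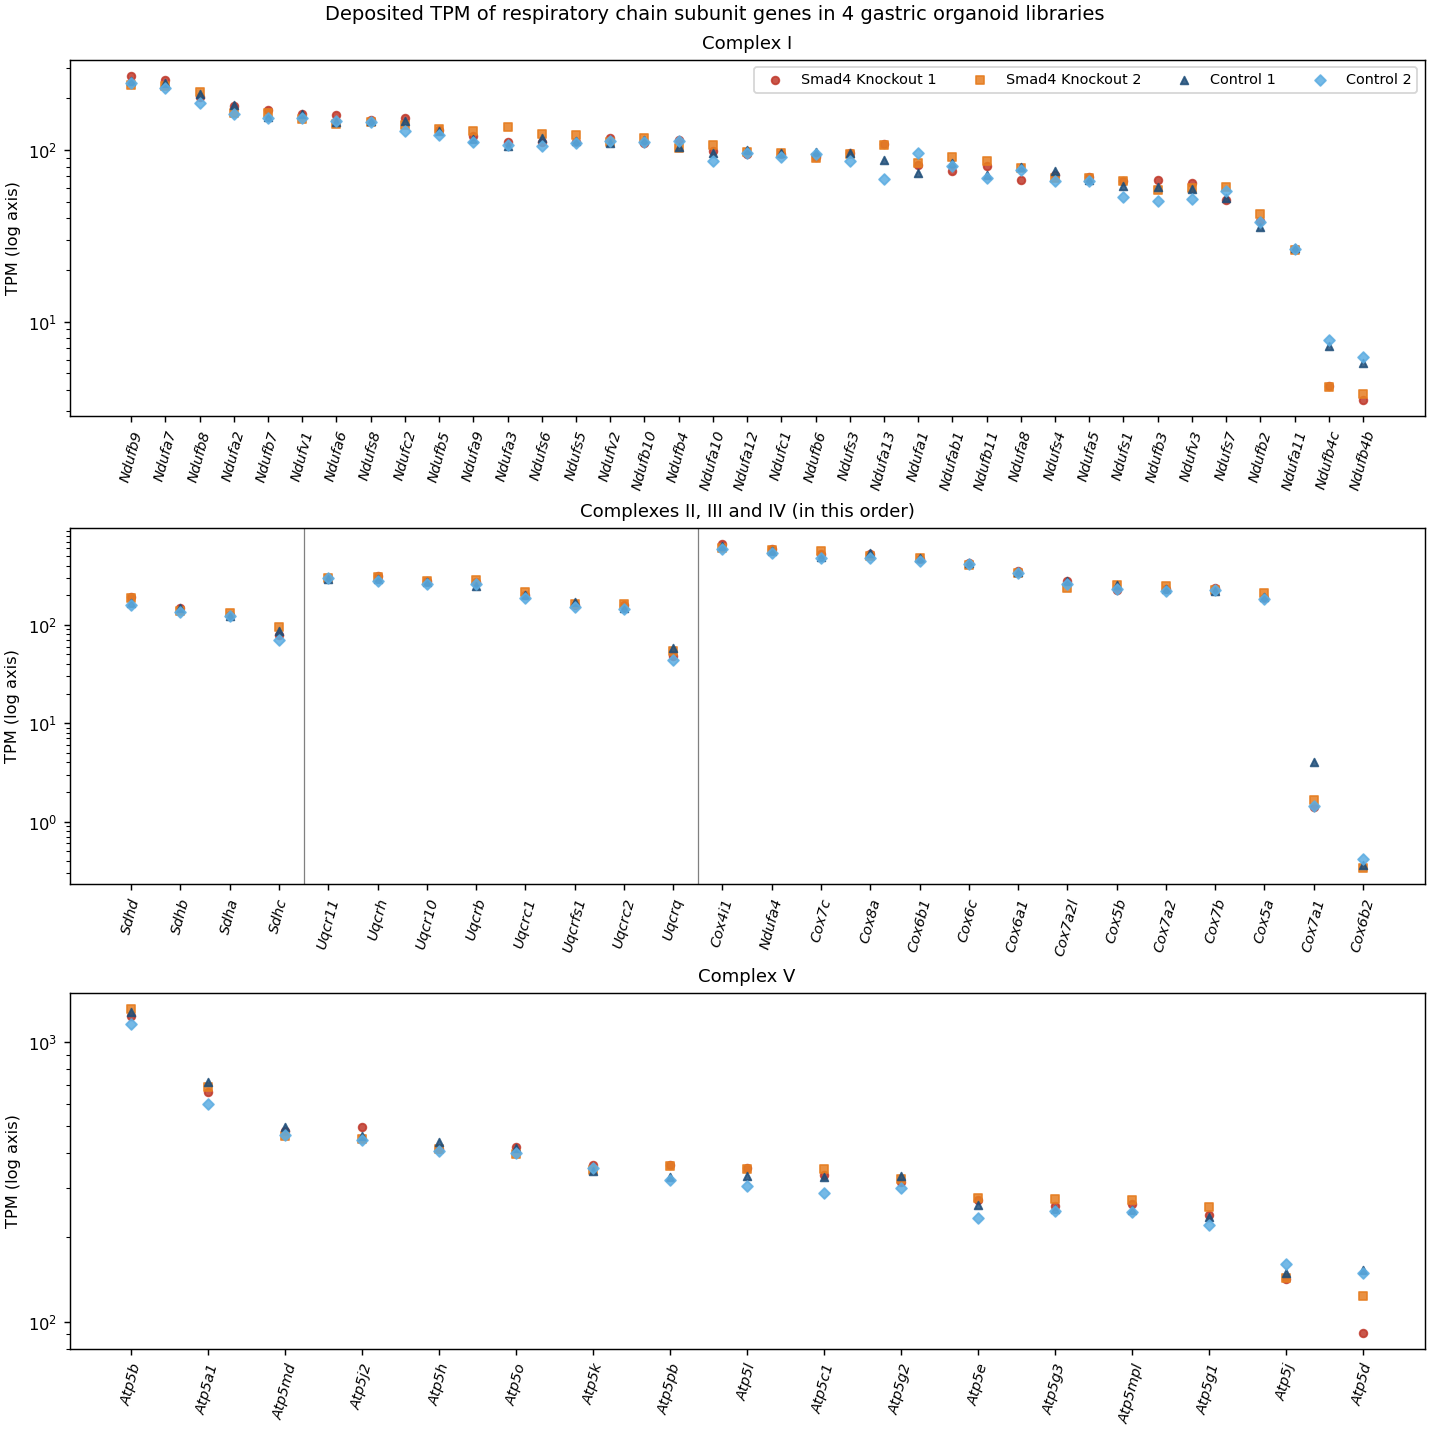
Deposited TPM (y axes, log scale) of the detected subunit genes, 1 left out, in each of the 4 libraries, ordered by mean within complexes I, II to IV and V; values of 0 cannot be drawn on a log axis, which leaves out Cox6b2 in Smad4 Knockout library 1. The points of a gene lie on top of each other for most genes, while levels differ by up to 9.65-fold within a complex among genes above 10 TPM, and Ndufb4b, Ndufb4c, Cox7a1 and Cox6b2 lie far below the rest.

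Summed over each complex, TPM was slightly higher in the Smad4 Knockout libraries, by less than the Control libraries differed from each other in complexes I, IV and V. Complex I summed to 4168 and 4168 TPM in the Smad4 Knockout libraries and 4077 and 3884 TPM in the Control libraries. Complex IV summed to 4704 and 4646 TPM in the Smad4 Knockout libraries and 4644 and 4413 TPM in the Control libraries. For complex V the Smad4 Knockout libraries, at 6708 and 6801 TPM, overlapped with the Control libraries, at 6789 and 6309 TPM. The means in Smad4 Knockout were 104.7% of Control for complex I, 103.2% for complex IV and 103.1% for complex V. Complex III reached 1734 and 1766 TPM in the Smad4 Knockout libraries, against 1678 and 1620 TPM in the Control libraries (106.1%). Complex II reached 548 and 553 TPM in the Smad4 Knockout libraries, against 521 and 490 TPM in the Control libraries (108.9%). On summed CPM, which is not scaled by transcript length, the same percentages were 101.5%, 105.6%, 103.7%, 100.5% and 101.5% for complexes I to V. In these sums the Control library 2 was the lowest of the 4 libraries for every complex, on TPM.

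**Figure D3:**
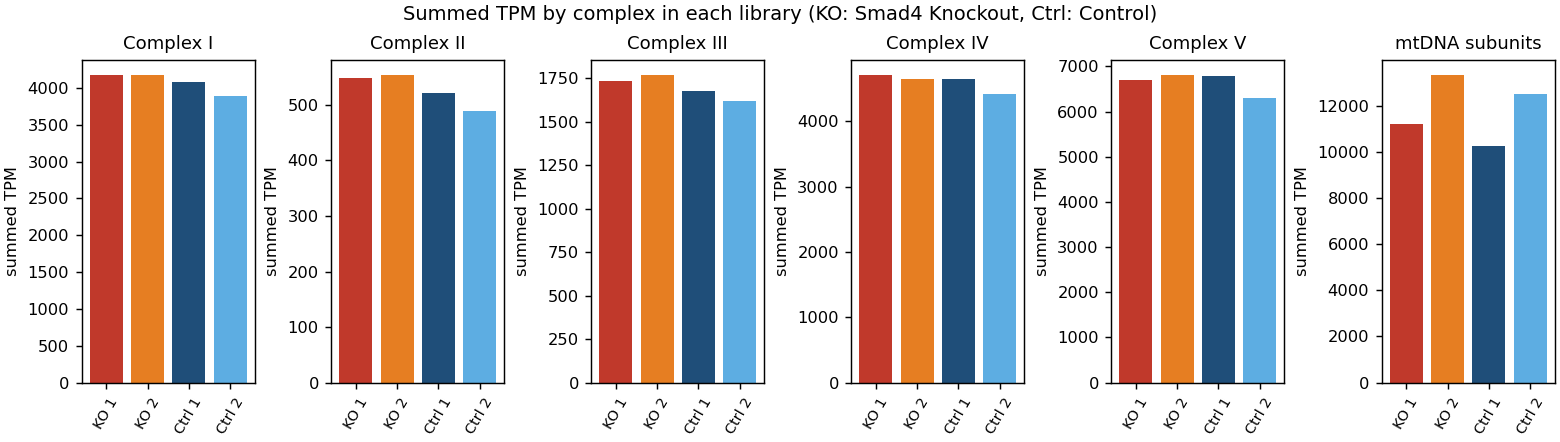
Summed deposited TPM (y axes from 0) of the nuclear subunits of each complex and of the 13 subunits encoded in mitochondrial DNA, 1 bar per library. Control library 2 is lowest for each of the 5 nuclear sums, and the mitochondrial DNA sum runs from 10247 in Control library 1 to 13309 in Smad4 Knockout library 2.

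In complex I, the catalytic core carries the flavin and the iron-sulfur clusters and binds ubiquinone. Ndufs1, which holds iron-sulfur clusters of the NADH-oxidizing arm, had 105 and 118 CPM in the Smad4 Knockout libraries and 110 and 89.1 CPM in the Control libraries (log2 fold change 0.16, SE 0.139). Ndufv1, which binds NADH and the flavin, had 152 and 152 CPM in the Smad4 Knockout libraries and 168 and 148 CPM in the Control libraries (log2 fold change -0.053, SE 0.108). The genotypes overlapped in CPM for both genes.

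Most of the other complex I genes encode accessory subunits of the peripheral and membrane arms. Ndufb9, a membrane arm subunit with the highest level in complex I, had 108 and 103 CPM in the Smad4 Knockout libraries and 111 and 102 CPM in the Control libraries (log2 fold change -0.014, SE 0.104). Ndufb11, another membrane arm subunit, had 41.0 and 47.2 CPM in the Smad4 Knockout libraries, above the 40.3 and 36.1 CPM in the Control libraries. Its log2 fold change of 0.21 (SE 0.129) was the highest in complex I, with an adjusted p of 0.869 by edgeR. The gap between the genotypes was narrow for Ndufb11, since Smad4 Knockout library 1 and Control library 1 differed by less than the libraries of either genotype. Ndufb11 lies at chrX:20615326-20617619 and its end overlaps Rbm10, an RNA-binding protein gene, which had 84.1 and 87.0 CPM in the Smad4 Knockout libraries and 86.8 and 82.2 CPM in the Control libraries. Ndufa3, a small membrane arm subunit, had 23.1 and 30.6 CPM in the Smad4 Knockout libraries and 24.1 and 22.8 CPM in the Control libraries (log2 fold change 0.19, SE 0.167). Its value rested on Smad4 Knockout library 2: without that library the log2 fold change was -0.007.

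Ndufa13, a membrane arm subunit also known as GRIM-19, was singled out after its values were seen because the 2 scales differed for it. It had 108 and 107 TPM in the Smad4 Knockout libraries, above the 87.3 and 67.5 TPM in the Control libraries. In CPM it had 80.3 and 85.6 in the Smad4 Knockout libraries and 88.3 and 74.4 in the Control libraries, so that the genotypes overlapped. The deposited TPM and the deposited counts of a gene thus do not always order the libraries alike.

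The clearest separation in complex I was seen in Ndufb4c and Ndufb4b, relatives of Ndufb4, which encodes a membrane arm subunit. Ndufb4c had 1.20 and 1.27 CPM in the Smad4 Knockout libraries, against 2.24 and 2.28 CPM in the Control libraries. Its log2 fold change was -0.87 (SE 0.285), with an unadjusted p of 0.0231 and an adjusted p of 0.694 in the edgeR fit. Ndufb4b had 0.972 and 1.13 CPM in the Smad4 Knockout libraries, against 1.74 and 1.78 CPM in the Control libraries (log2 fold change -0.75, SE 0.316, unadjusted p 0.0571). Both were lower in each Smad4 Knockout library than in each Control library, and the libraries of a genotype lay close to each other. Ndufb4 itself did not follow them, with 30.4 and 29.2 CPM in the Smad4 Knockout libraries and 30.3 and 30.9 CPM in the Control libraries (log2 fold change -0.039, SE 0.113). Relative to the counts of Ndufb4, Ndufb4c had 3.95% and 4.35% in the Smad4 Knockout libraries and 7.37% and 7.36% in the Control libraries. Ndufb4b had 3.19% and 3.85% in the Smad4 Knockout libraries and 5.72% and 5.76% in the Control libraries.

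The counts of Ndufb4c cannot be assigned with certainty, and the sequences are printed to show why. Ndufb4 is coded on the minus strand of chromosome 16, between 37647657 and 37654359 (GRCm38). A stretch inside Ndufb4c, at chr15:73809507-73809896 on the minus strand, holds all 390 coding bases of Ndufb4 without a mismatch, so reads within it can belong to either gene. GENCODE M21 classes this stretch as a processed pseudogene, while the deposited files class Ndufb4c as protein_coding. Ndufb4b has the same letters near its start: in the 300-base RefSeq windows around the start sites (GRCm38.p6), Ndufb4 and Ndufb4b share a run of 26 bases. The spliced coding sequence is shown to its base 300. In it, capitals mark the 16 coding bases that also end the Ndufb4b window, and in both windows capitals mark the shared run. The Ndufb4 window is chr16:37654319-37654618 (minus strand) and the Ndufb4b window is chr19:25032858-25033157 (plus strand).
Ndufb4 coding and Ndufb4c copy: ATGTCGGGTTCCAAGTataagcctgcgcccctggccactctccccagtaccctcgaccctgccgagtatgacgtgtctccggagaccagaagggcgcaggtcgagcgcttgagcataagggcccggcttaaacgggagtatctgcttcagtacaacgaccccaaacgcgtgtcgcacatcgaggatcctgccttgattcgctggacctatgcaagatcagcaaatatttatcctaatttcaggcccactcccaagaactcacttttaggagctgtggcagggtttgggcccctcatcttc
Ndufb4 promoter: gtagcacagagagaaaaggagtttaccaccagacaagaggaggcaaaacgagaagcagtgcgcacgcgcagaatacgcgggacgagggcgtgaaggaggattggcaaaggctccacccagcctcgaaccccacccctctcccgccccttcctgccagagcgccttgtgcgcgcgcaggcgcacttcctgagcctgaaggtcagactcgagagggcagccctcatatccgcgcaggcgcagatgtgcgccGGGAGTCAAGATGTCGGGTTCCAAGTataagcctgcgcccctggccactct
Ndufb4b promoter: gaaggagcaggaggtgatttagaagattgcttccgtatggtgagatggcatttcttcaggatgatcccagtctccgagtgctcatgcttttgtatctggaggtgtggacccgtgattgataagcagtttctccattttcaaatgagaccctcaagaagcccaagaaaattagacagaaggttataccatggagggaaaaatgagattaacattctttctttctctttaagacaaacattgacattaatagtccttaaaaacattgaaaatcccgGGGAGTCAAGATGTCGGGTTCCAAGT
The run lies at the end of the Ndufb4b window, and no longer run is shared by the windows. Ndufb4b was not compared with Ndufb4 past this window, so the shared stretch may be longer. Whether the counts of Ndufb4b can be assigned with certainty was not tested.

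Ndufb4b, at chr19:25033108-25033578, lies within the span of Dock8 (chr19:24999321-25202432), a guanine nucleotide exchange factor gene of the same strand. Dock8 had 8.33 and 3.04 CPM in the Smad4 Knockout libraries, against 13.5 and 14.1 CPM in the Control libraries. Its log2 fold change was -1.28 (SE 0.444, adjusted p 0.722 by edgeR), the same direction as that of Ndufb4b, and its part in the Ndufb4b counts was not tested. Ndufb4c lies within the span of Mroh5, which was at 0 counts in all 4 libraries.

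**Figure D4:**
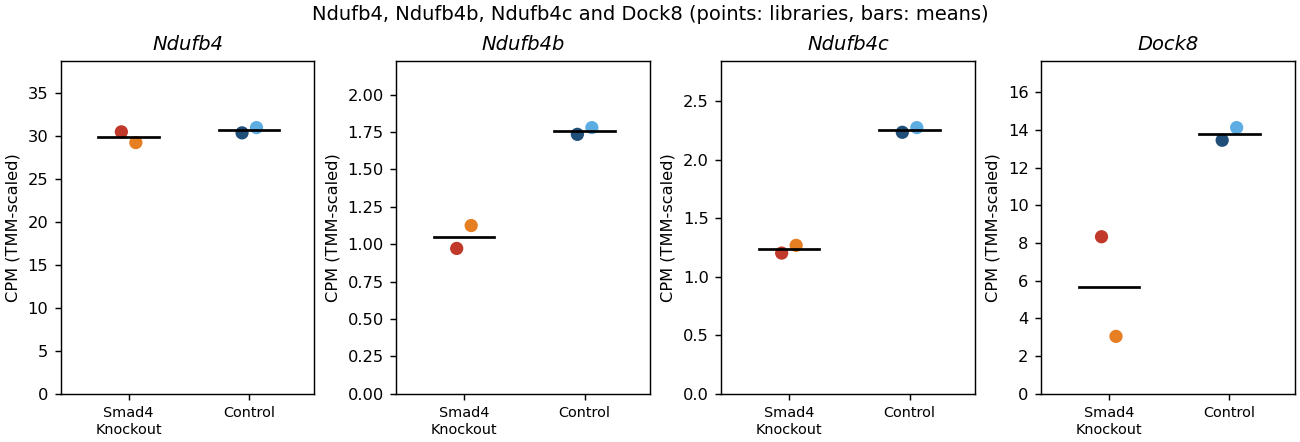
CPM (y axes from 0, a different scale in each panel) of Ndufb4, Ndufb4b, Ndufb4c and Dock8, 1 point per library with the mean of each genotype as a bar. Ndufb4b, Ndufb4c and Dock8 are lower in both Smad4 Knockout libraries than in both Control libraries, while the libraries overlap for Ndufb4.

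Complex II, succinate dehydrogenase, also acts in the citric acid cycle, and it is the only complex with no subunit from mitochondrial DNA. Sdhd, the small membrane anchor, had 145 and 153 CPM in the Smad4 Knockout libraries, above the 136 and 124 CPM in the Control libraries. It averaged 149 ± 5.18 CPM in Smad4 Knockout and 130 ± 8.99 CPM in Control (SD, n = 2 each). Its log2 fold change was 0.20 (SE 0.104), with an unadjusted p of 0.108 and an adjusted p of 0.84 in the edgeR fit. The value was between 0.13 and 0.27 when each library in turn was left out. The genotypes did not overlap for Sdhd on either scale, with 193 and 189 TPM in the Smad4 Knockout libraries and 165 and 160 TPM in the Control libraries.

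The other complex II genes overlapped between genotypes in CPM. Sdhc, the other membrane anchor, had 54.2 and 70.0 CPM in the Smad4 Knockout libraries and 65.2 and 49.6 CPM in the Control libraries (log2 fold change 0.11, SE 0.185). Sdha, the flavoprotein that oxidizes succinate, had 211 and 238 CPM in the Smad4 Knockout libraries and 226 and 213 CPM in the Control libraries (log2 fold change 0.034, SE 0.108). Sdhb, the iron-sulfur subunit, had 94.6 and 93.2 CPM in the Smad4 Knockout libraries and 102 and 88.4 CPM in the Control libraries (log2 fold change -0.018, SE 0.112). Sdhc had the widest spread over the 4 libraries of all subunit genes whose mean was at least 20 CPM, a log2 range of 0.497.

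Complex III passes electrons from ubiquinone to cytochrome c. Uqcr11, a small subunit with the highest level in this complex, had 302 and 300 TPM in the Smad4 Knockout libraries and 289 and 299 TPM in the Control libraries. Uqcrc2, a core subunit, had the highest log2 fold change of the complex, 0.11 (SE 0.11), with 174 and 193 CPM in the Smad4 Knockout libraries and 178 and 162 CPM in the Control libraries. Uqcrfs1, the Rieske iron-sulfur protein that takes electrons from ubiquinol, had the lowest, -0.022 (SE 0.129), with 123 and 135 CPM in the Smad4 Knockout libraries and 143 and 119 CPM in the Control libraries. The genotypes overlapped in CPM for all 8 complex III genes.

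Complex IV, cytochrome c oxidase, has several subunits with tissue-specific isoforms, and these organoids expressed mainly 1 form of each. Cox4i1, the widely expressed form of subunit 4, had 661 and 597 TPM in the Smad4 Knockout libraries and 631 and 593 TPM in the Control libraries. Its partner Cox4i2, a form linked to lung and to low oxygen, was at 0 counts in all 4 libraries. Cox6a2 and Cox8b, forms of heart and skeletal muscle, were at 0 counts too, and so were Cox8c and Cox7b2, known from testis. Ndufa4l2, the low-oxygen relative of Ndufa4, was the last of the 6 genes at 0. For each, a level that gives fewer than 3 counts per library was not detectable at this depth.

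The other form of each pair was abundant. Cox6a1 had 349 and 339 TPM in the Smad4 Knockout libraries and 346 and 338 TPM in the Control libraries. Cox8a had 519 and 503 TPM in the Smad4 Knockout libraries and 533 and 480 TPM in the Control libraries. Ndufa4 had 595 and 576 TPM in the Smad4 Knockout libraries and 560 and 538 TPM in the Control libraries. The log2 fold changes of these 3 genes in the count fit were -0.029 for Cox6a1, -0.026 for Cox8a and 0.056 for Ndufa4. The genotypes overlapped in CPM for each of them. Cox6b2, the testis form of subunit 6b, had 0 and 0.124 CPM in the Smad4 Knockout libraries and 0.153 and 0.162 CPM in the Control libraries, whereas Cox6b1 had 129 and 142 CPM in the Smad4 Knockout libraries and 145 and 124 CPM in the Control libraries.

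Subunit 7a has a heart and muscle form, Cox7a1, a widely expressed form, Cox7a2, and a relative that takes part in joining complexes III and IV, Cox7a2l. Cox7a1 had 0.301 and 0.382 CPM in the Smad4 Knockout libraries and 0.949 and 0.324 CPM in the Control libraries. Control library 1 stood above the others for Cox7a1, and without it the log2 fold change was 0.079 in place of -0.90 (SE 0.719). Cox7a2 had 110 and 117 CPM in the Smad4 Knockout libraries and 112 and 101 CPM in the Control libraries (log2 fold change 0.090, SE 0.107). Cox7a2l had 179 and 162 CPM in the Smad4 Knockout libraries and 192 and 170 CPM in the Control libraries (log2 fold change -0.092, SE 0.114). By TPM, Cox7a1 stood at 0.607% and 0.67% of Cox7a2 in the Smad4 Knockout libraries and at 1.74% and 0.639% in the Control libraries. The highest log2 fold change in complex IV was that of Cox7c, 0.13 (SE 0.121), with 138 and 159 CPM in the Smad4 Knockout libraries and 143 and 128 CPM in the Control libraries.

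The promoters of the expressed and the silent form of subunit 8 are shown as an example of a pair with 1 abundant form and 1 at 0 counts. They are the RefSeq windows from 250 bases before to 50 bases after the start site on GRCm38.p6, for Cox8a at chr19:7217567-7217866 (minus strand) and for Cox8b at chr7:140900397-140900696 (minus strand). Capitals mark matches to the motif searches described next, and the Cox8b window holds none. This contrast was not found in every pair. Of other abundant forms, Cox6a1 and Cox6b1 held matches, while Cox7a2 and Cox7b held none. Cox6b2, Cox7a1 and Cox7b2, which were low or at 0, held none. Whether matches go with the level of a form was not tested.
Cox8a promoter: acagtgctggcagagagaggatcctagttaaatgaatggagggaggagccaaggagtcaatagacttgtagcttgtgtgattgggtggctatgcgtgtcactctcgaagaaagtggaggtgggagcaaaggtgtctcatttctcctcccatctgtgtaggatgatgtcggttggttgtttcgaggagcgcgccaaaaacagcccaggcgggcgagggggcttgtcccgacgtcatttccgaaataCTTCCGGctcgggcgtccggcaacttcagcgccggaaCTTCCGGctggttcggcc
Cox8b promoter: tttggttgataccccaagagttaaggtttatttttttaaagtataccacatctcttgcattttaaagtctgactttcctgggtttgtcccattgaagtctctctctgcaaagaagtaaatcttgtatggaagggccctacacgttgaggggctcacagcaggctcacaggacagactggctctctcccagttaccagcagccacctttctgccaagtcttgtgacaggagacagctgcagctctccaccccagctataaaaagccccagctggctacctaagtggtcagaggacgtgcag
Sdhd promoter: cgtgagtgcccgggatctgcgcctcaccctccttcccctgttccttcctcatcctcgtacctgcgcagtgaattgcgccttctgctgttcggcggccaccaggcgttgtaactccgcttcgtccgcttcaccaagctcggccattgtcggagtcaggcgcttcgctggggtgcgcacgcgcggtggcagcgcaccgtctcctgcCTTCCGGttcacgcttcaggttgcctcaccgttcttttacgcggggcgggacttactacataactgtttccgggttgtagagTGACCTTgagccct
The Sdhd window (chr9:50603800-50604099, minus strand) is printed with them as that of the gene with the highest log2 fold change in complex II. The searched letters, on both strands, were CGCATGCG for NRF1, CCGGAAG for ETS factors such as GABPA, AAGATGG for YY1, AAGGTCA for the estrogen-related receptors (ERR) and GTCTAGAC for SMAD proteins. Cox8a held the ETS letters at 2 places, starting at bases -5 and 33 from the start site. Sdhd held the ETS letters from base -46 and the ERR letters from base 37, and no motif overlapped another in these windows.

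RefSeq windows were at hand for 70 of the 87 subunit genes, with 75 start sites among them, and 32851 windows for all genes. The NRF1 letters were in 9 of the 75 windows (12%), against 1.87% of all windows. The ETS letters were in 17 (22.7%), against 8.86% of all windows. The YY1 letters were in 11 (14.7%), against 6.34%, and the ERR letters in 8 (10.7%), against 4.72%. At least 1 of the NRF1, ETS and YY1 motifs was in 31 windows (41.3%), against 16% of all windows. The SMAD letters were in 0 of the 75 windows and in 0.213% of all windows. A match describes the letters in the window only, and a missing match says nothing about a factor.

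Complex V makes ATP in a catalytic head, driven by the turning of a central stalk and a membrane ring. Of the head, Atp5b had 1357 and 1548 CPM in the Smad4 Knockout libraries and 1550 and 1312 CPM in the Control libraries. Atp5a1, the alpha subunit of the head, had 945 and 1053 CPM in the Smad4 Knockout libraries and 1128 and 874 CPM in the Control libraries (log2 fold change -0.003, SE 0.146). Of the central stalk, Atp5c1, the gamma subunit, had 230 and 259 CPM in the Smad4 Knockout libraries and 246 and 203 CPM in the Control libraries (log2 fold change 0.12, SE 0.132). Atp5d, the delta subunit, had 75.3 and 81.8 CPM in the Smad4 Knockout libraries, below the 91.5 and 83.7 CPM in the Control libraries. The log2 fold change of Atp5d was -0.16 (SE 0.109), the lowest in complex V, with an adjusted p of 0.884 by edgeR. In TPM, Atp5d had 91.0 and 123 in the Smad4 Knockout libraries, against 153 and 149 in the Control libraries.

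The peripheral stalk holds the head still. Atp5pb, its b subunit, had 402 and 428 CPM in the Smad4 Knockout libraries, above the 401 and 367 CPM in the Control libraries (log2 fold change 0.11, SE 0.102). For Atp5pb the nearest libraries of the genotypes were nearly level. Atp5j, subunit F6 of the same stalk, had 66.9 and 72.3 CPM in the Smad4 Knockout libraries, below the 77.0 and 78.1 CPM in the Control libraries (log2 fold change -0.16, SE 0.102). Atp5j (chr16:84827871-84835857) overlaps the span of Gabpa (chr16:84834891-84863783). Gabpa had 106 and 103 CPM in the Smad4 Knockout libraries, below the 120 and 113 CPM in the Control libraries (log2 fold change -0.15, SE 0.099). The part of Gabpa in the Atp5j counts was not tested. The c ring of the membrane part is built from 1 protein that is encoded by 3 genes, Atp5g1, Atp5g2 and Atp5g3. Their shares of the summed TPM of the 3 genes were steady. Atp5g1 took 29.5% and 30.0% in the Smad4 Knockout libraries and 28.8% and 28.7% in the Control libraries. Atp5g2 took 38.7% and 37.9% in the Smad4 Knockout libraries and 40.3% and 39.1% in the Control libraries. Atp5g3 took the rest, 31.8% and 32.1% in the Smad4 Knockout libraries and 30.8% and 32.2% in the Control libraries.

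Separation of the genotypes was rare among the subunit genes on the count scale. In CPM, 9 of the 81 tested genes (11.1%) had no overlap between genotypes, against 36.9% of all tested genes. Both Smad4 Knockout libraries lay above both Control libraries for Ndufb11, Sdhd and Atp5pb, a pattern that 18.2% of all genes had. They lay below for Ndufb4b, Ndufb4c, Ndufb6, Atp5d, Atp5j and Cox6b2, a pattern that 18.6% of all genes had. Among the 77 subunit genes whose mean was at least 20 CPM, 6 had no overlap (7.79%), against 36.5% of all genes at that level. The count depended on the scale. In the deposited TPM, 34 of 80 subunit genes (42.5%) had no overlap, 29 with Smad4 Knockout above and 5 with it below, against 38.2% of all 13277 genes tested on TPM (24.3% above and 13.9% below).

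The libraries of a genotype differed from each other as much as the genotypes did. A minority of the subunit genes had the same order of Control libraries, a larger share than among all genes. In CPM, Control library 1 was the highest and Control library 2 the lowest of the 4 libraries for 28 of the 81 genes (34.6%), against 9.1% of all tested genes. At a mean of at least 20 CPM it was 36.4% of the subunit genes against 12.7% of all genes. Control library 2 was the lowest for 55 of the 81 genes, against 28.2% of all genes. Smad4 Knockout library 2 was the highest for 35 genes, Control library 1 for 40, Control library 2 for 6 and Smad4 Knockout library 1 for 0. The highest library was not counted over all genes, so these counts cannot be called particular to the subunit genes. In TPM the order with Control library 1 highest and Control library 2 lowest was found in 9 of 80 genes (11.2%), against 4.78% of all genes, and Control library 2 was the lowest in 50 of them, against 23.9% of all genes.

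The size of these shifts was small. Relative to the mean of a gene over the 4 libraries, in log2 CPM and for genes whose mean was at least 20 CPM, the median subunit gene deviated by -0.045 in Smad4 Knockout library 1 and by 0.063 in Smad4 Knockout library 2. It deviated by 0.074 in Control library 1 and by -0.098 in Control library 2. Over all genes at that level the medians were 0.0 and -0.005 in the Smad4 Knockout libraries and 0.027 and -0.012 in the Control libraries. The genes of the mitochondrial ribosome had nearly the same order, with -0.033 and 0.045 in the Smad4 Knockout libraries and 0.082 and -0.086 in the Control libraries. The range over the 4 libraries had a median of 0.233 (log2) among the 77 subunit genes and of 0.268 among all genes at that level, and its highest value was 0.497 for the subunit genes and 3.73 for all genes.

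**Figure D5:**
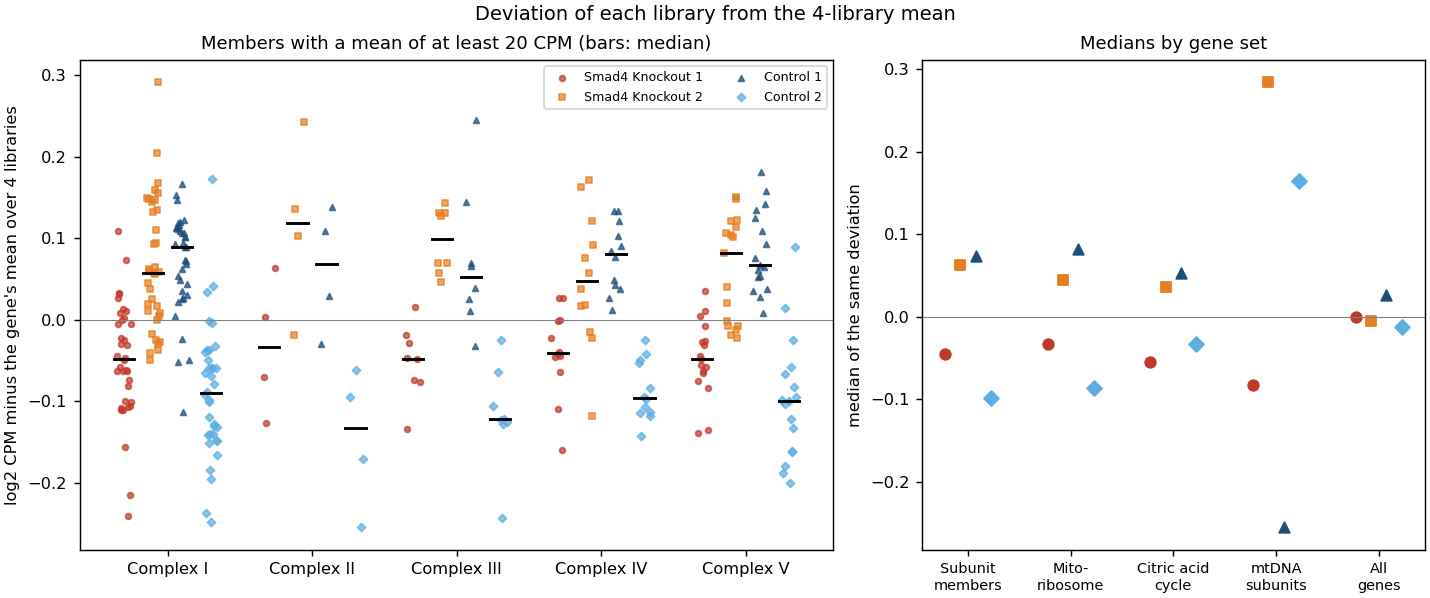
Left, deviation of each library from the mean of the 4 libraries (log2 CPM, y axis) for the 77 subunit genes whose mean was at least 20 CPM, by complex, with the median of each library as a bar. Right, the medians for the subunit genes, mitochondrial ribosomal proteins, the citric acid cycle, the subunits encoded in mitochondrial DNA, and all genes. Each set is limited to genes whose mean was at least 20 CPM, which leaves 9 of the 13 genes of mitochondrial DNA. In the subunit genes Control library 2 is lowest at -0.098 and Control library 1 highest at 0.074.

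The 13 protein genes of mitochondrial DNA encode the membrane core of complexes I, III, IV and V. Their summed TPM was 11196 and 13309 in the Smad4 Knockout libraries and 10247 and 12487 in the Control libraries, so that the genotypes overlapped. Relative to the summed TPM of the nuclear subunits this was 0.627 and 0.742 in the Smad4 Knockout libraries and 0.579 and 0.747 in the Control libraries. Control library 2 was thus below Control library 1 for the nuclear subunits and above it for those of mitochondrial DNA. The median log2 fold change of the 13 genes was 0.257, none was called by edgeR, and ND6 alone had no overlap between genotypes. ND6, the only 1 of them read from the other strand, had 0.706 and 2.04 CPM in the Smad4 Knockout libraries and 0.419 and 0.615 CPM in the Control libraries (log2 fold change 1.41, SE 0.608, adjusted p 0.802 by edgeR). Smad4 Knockout library 2 stood above the others for ND6, and without it the log2 fold change was 0.46. COX3, with the lowest log2 fold change (-0.031, SE 0.121), had 1848 and 2155 CPM in the Smad4 Knockout libraries and 1913 and 2176 CPM in the Control libraries. COX1 made up 41.9% and 44.2% of their TPM in the Smad4 Knockout libraries and 43.0% and 39.5% in the Control libraries, and nuclear copies of mitochondrial DNA leave the split between these genes uncertain.

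Of the genes that assemble the complexes, 0 were called in each list. The median log2 fold change of these lists ran from -0.15 to 0.059. Of 17 tested assembly factors of complex I, 2 had both Smad4 Knockout libraries above and 3 had both below the Control libraries in CPM, and the median log2 fold change was 0.026. Over all tested genes these shares were 18.2% above and 18.6% below, and the counts of the following lists stand beside the same shares. Among 20 factors of complex IV, 5 lay above and 1 below, with a median of 0.043. Coa4, named for cytochrome c oxidase assembly, had 6.36 and 9.99 TPM in the Smad4 Knockout libraries, above the 5.40 and 4.78 TPM in the Control libraries (log2 fold change of the counts 0.67, SE 0.297, adjusted p 0.811 by edgeR). Without Smad4 Knockout library 2 the log2 fold change of Coa4 was 0.31. Of 7 factors of complex V, 1 lay above and 3 below, with a median of -0.15. Atpaf2, a chaperone of the alpha subunit, had 32.7 and 34.2 CPM in the Smad4 Knockout libraries, below the 40.5 and 39.1 CPM in the Control libraries (log2 fold change -0.25, SE 0.11, adjusted p 0.805 by edgeR). For complexes II and III, 3 of 10 factors lay above and 3 below, with a median of 0.059. Sdhaf4 had 7.84 and 7.35 CPM in the Smad4 Knockout libraries and 6.45 and 5.49 CPM in the Control libraries.

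The regulators of mitochondrial biogenesis did not separate the genotypes in 19 of 25 tested genes, with 0 above and 6 below, against 18.2% above and 18.6% below over all genes. Twnk, the helicase that copies mitochondrial DNA, had 25.4 and 22.7 CPM in the Smad4 Knockout libraries, below the 29.3 and 31.5 CPM in the Control libraries (log2 fold change -0.34, SE 0.127, adjusted p 0.754 by edgeR). Tfb2m, a mitochondrial transcription factor, had 22.7 and 25.8 CPM in the Smad4 Knockout libraries and 23.4 and 19.0 CPM in the Control libraries. Of 9 electron carriers and entry enzymes, 3 lay above and 0 below, and the median log2 fold change was 0.124. Sqor, which feeds electrons from sulfide to ubiquinone, had 99.1 and 110 CPM in the Smad4 Knockout libraries, above the 98.2 and 78.1 CPM in the Control libraries (log2 fold change 0.25, SE 0.142). The nearest libraries were nearly level for Sqor, and the log2 fold change was 0.09 without Control library 2 and 0.43 without Control library 1.

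Ucp2, an inner membrane carrier of the uncoupling protein family, was 1 of 7 tested carrier and uncoupling genes, 2 of which lay above and 0 below. It had 17.3 and 20.7 TPM in the Smad4 Knockout libraries, above the 11.5 and 14.4 TPM in the Control libraries (log2 fold change of the counts 0.53, SE 0.182, unadjusted p 0.0277, adjusted p 0.718 by edgeR). In the citric acid cycle, 1 of 18 genes lay above and 3 below (median -0.015), with Idh3g, a subunit of isocitrate dehydrogenase, at 77.7 and 75.9 CPM in the Smad4 Knockout libraries and 93.8 and 85.7 CPM in the Control libraries. In coenzyme Q synthesis, 5 of 13 lay above and 1 below (median 0.02). Of the 78 mitochondrial ribosomal protein genes, 11 lay above and 10 below, and the median was 0.0. The shares over all genes were again 18.2% above and 18.6% below. These lists are set beside the subunit genes as counts and medians, with no test of a list.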

How the data were processed

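Total RNA of 4 organoid libraries was prepared, per the labels' protocols, with a TruSeq kit that depletes ribosomal RNA and marks strand. Tools named in the submitters' processing notes are HISAT2 2.1.0 and StringTie 2.1.3b, besides Trimmomatic and bcl2fastq 2.20.0, with mm10 as the build. No source used here gives the counting step or its strand setting. Each of 45777 genes has a read count, a TPM and an FPKM value per the file headers. The counts deposited by the authors hold whole numbers only and were used as estimated counts. The FPKM values deposited by the authors were not tested. The deposited TPM served for levels, sums and an alternative test. A total of 1 further per-sample column was not used, and 26 symbols that a spreadsheet had turned into dates were restored from gene IDs.

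Counts were tested with edgeR 4.0.16 in R 4.3.3 (quasi-likelihood F-test, TMM, filterByExpr with a minimum count of 10, genotype as the only term), with Benjamini-Hochberg adjustment over 18115 genes at 0.05. CPM use TMM-scaled library sizes. Depth was 85649781 to 96402585 counts in the Smad4 Knockout libraries and 92334224 to 99845702 in the Control libraries, and the floor of detection was set at 3 counts. Such limits cover counting error only. Alternatives were RLE size factors, no filter, DESeq2 1.42.0, limma 3.58.1 on log2(TPM + 1) and log2(TPM + 0.1) for genes with at least 1 TPM in 2 libraries, protein-coding genes only, normalization without 462 mitochondrial DNA, ribosomal protein and histone genes, robust moderation, members without pseudogene rows, summed CPM, and each library left out. Leaving out Ndufb4b and Ndufb4c was chosen after seeing the data. The fits were tested on simulated data.

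The subunit genes and the other lists were chosen with earlier results of these data known. Values in every library are given for the 10 subunit genes with the smallest edgeR p, for the highest level and the highest and lowest log2 fold change of each complex, for isoform pairs, for complex II, and for the smallest p in each direction in the other lists. Other genes named were chosen after their values were seen. Coordinates and windows are from RefSeq GRCm38.p6, and the Ndufb4 coding sequence is from GENCODE M21. A result for 1 subunit gene, which counts in the totals, is not reported here by name.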

Additional observations from a re-analysis of the deposited data

How the results depend on the processing

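No subunit gene was called in any fit, including those that left out a library. The number of genes called among all genes was 133 by DESeq2 and 0 in the other fits on all libraries, and it was between 0 and 92 when each library in turn was left out, with 92 without Smad4 Knockout replicate 1 and 1 without Control replicate 1. The number of subunit genes at an unadjusted p under 0.05 was 1 in the edgeR fit, 0 by DESeq2, 0 without Ndufb4b and Ndufb4c, 6 by limma on TPM with either pseudocount (against 7.09% of all genes with a pseudocount of 1), and 0 without any 1 library. The 6 genes were Ndufb4c, Ndufa13, Ndufb4b, Atp5d, Sdhd and Ndufb11. The number with no overlap between genotypes was 34 on TPM with either pseudocount, and between 30 and 64 when a library was left out, where fewer libraries make overlap less likely by construction. The median log2 fold change had no stable direction: leaving out libraries gave -0.071 to 0.104 over all subunit genes, -0.077 to 0.095 for complex I, -0.041 to 0.181 for complex II, -0.034 to 0.141 for complex III, -0.094 to 0.089 for complex IV and -0.042 to 0.128 for complex V. Each was highest without Control replicate 1 and lowest without Control replicate 2, and the median of all genes stayed between -0.008 and 0.013. For the mitochondrial DNA subunits it was -0.091 to 0.772. The summed TPM in Smad4 Knockout as a percentage of Control was 102.2 to 107.3 for complex I, 105.6 to 112.4 for complex II, 104.3 to 108.0 for complex III, 100.7 to 105.9 for complex IV and 99.49 to 107.1 for complex V. The causes were not tested. Ndufb4c stayed between -0.89 and -0.83 and Ndufb4b between -0.84 and -0.64 in log2 fold change without each library. Of 53 named genes, 11 changed sign without Control replicate 1 and 8 of 52 did on TPM, none of them called. No paired analysis was possible because the labels give the libraries no replicate numbers that are shared between the genotypes. With 2 libraries per genotype, the fits on all libraries have 2 residual degrees of freedom before moderation, and those that leave out a library have fewer.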

Other observations

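Further genes of the neighbouring pathways, none of them called by edgeR, gave the following values. Timmdc1, a complex I assembly factor, had 33.5 and 34.2 CPM in the Smad4 Knockout libraries, below the 41.4 and 36.7 CPM in the Control libraries (log2 fold change -0.21, SE 0.119). Uqcc2, a complex III assembly factor, had 68.2 and 63.3 CPM in the Smad4 Knockout libraries, below the 76.0 and 72.9 CPM in the Control libraries (log2 fold change -0.18, SE 0.103). Both genes kept the genotypes apart, whereas the genotypes overlapped for Dmac2, another complex I assembly factor, and for Dld, a shared subunit of dehydrogenase complexes. Dmac2 had 8.63 and 11.4 CPM in the Smad4 Knockout libraries and 9.29 and 7.52 CPM in the Control libraries. Dld had 94.9 and 112 CPM in the Smad4 Knockout libraries and 102 and 85.2 CPM in the Control libraries.

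In coenzyme Q synthesis the genotypes were apart for Coq5 on both scales, and for Coq4 in CPM only. Coq4 had 15.8 and 18.3 CPM in the Smad4 Knockout libraries, above the 15.4 and 13.1 CPM in the Control libraries (log2 fold change 0.26, SE 0.161). In TPM it had 11.1 and 11.5 in the Smad4 Knockout libraries and 11.5 and 10.8 in the Control libraries, which overlap. Coq5, the methyltransferase of the pathway, had 26.6 and 26.5 CPM in the Smad4 Knockout libraries, below the 31.3 and 29.6 CPM in the Control libraries (log2 fold change -0.20, SE 0.116). The mitochondrial ribosome also held genes of either kind. Mrps31 had 35.1 and 39.0 CPM in the Smad4 Knockout libraries, above the 31.4 and 30.4 CPM in the Control libraries (log2 fold change 0.26, SE 0.118). Mrps6 had 16.5 and 19.0 CPM in the Smad4 Knockout libraries, below the 19.9 and 24.1 CPM in the Control libraries (log2 fold change -0.31, SE 0.159). Both Mrps31 and Mrps6 encode proteins of the small subunit of that ribosome.

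Smaller differences were seen in the remaining lists. Cox15, which makes heme a for complex IV, had 42.3 and 43.3 CPM in the Smad4 Knockout libraries, below the 48.7 and 44.8 CPM in the Control libraries. Fmc1, a complex V assembly factor, had 9.63 and 9.85 CPM in the Smad4 Knockout libraries, above the 8.39 and 9.54 CPM in the Control libraries, but in TPM the genotypes overlapped for it. The genotypes overlapped for Slc25a3, the mitochondrial phosphate carrier, and for Prodh, which oxidizes proline. Slc25a3 had 314 and 361 CPM in the Smad4 Knockout libraries and 369 and 338 CPM in the Control libraries. Prodh had 16.3 and 14.3 CPM in the Smad4 Knockout libraries and 17.7 and 14.4 CPM in the Control libraries.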
